A study of Bos taurus with 38 samples.

Results

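Transcripts of 3 genes of MAP kinase signalling, MAP3K8, MAPK3 and DUSP14, were followed in cattle (Bos taurus) cumulus-oocyte complexes, 3 of the 27607 Ensembl genes counted in every library. They were taken up because the study had named them among cumulus transcripts, MAP3K8 and DUSP14 from its comparison of BCB classes and all of them from its correlation of cumulus transcripts with oocyte transcripts. Those measured values chose the genes, so the cumulus BCB contrast and the correlations of these cumulus transcripts with other oocyte transcripts are given here as a description with no test. The identifiers were ENSBTAG00000011600 for MAP3K8, ENSBTAG00000016156 for MAPK3 and ENSBTAG00000010279 for DUSP14.

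RNA was sequenced from 19 complexes aspirated from antral follicles of abattoir ovaries, and each complex gave a library of its single oocyte and a library of its own cumulus cells, 38 libraries in all. All complexes were incubated with brilliant cresyl blue (BCB), a dye that is broken down by the enzyme glucose-6-phosphate dehydrogenase. An oocyte that keeps the blue colour (BCB positive) is taken to have finished its growth, and one that loses it (BCB negative) to be still growing. There were 9 BCB positive and 10 BCB negative complexes, with no treatment other than the dye and no information on age, breed or which complexes shared an animal, so p-values measure the spread between these complexes. Per the study's methods, every complex was put in trypsin and pipetted to part the oocyte from its cumulus cells before freezing. Each cumulus library was a pool of all cells taken from one complex, in which fewer cells of a type and less RNA per cell cannot be told apart.

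MAP kinase cascades pass a signal from a receptor through kinases that act in series. A MAP3K phosphorylates a MAP2K, the MAP2K phosphorylates a MAP kinase, and the MAP kinase acts on transcription factors and other kinases, while dual specificity phosphatases (DUSPs) remove the phosphates again. MAP3K8 (also called TPL2 or COT) is a MAP3K that activates MEK kinases and, in unstimulated cells, is held by NFKB1 p105. MAPK3 (ERK1) is one of the ERK kinases that carry the EGF-like signal in cumulus cells after the gonadotropin surge, and ERK activity in the oocyte accompanies meiotic maturation. DUSP14 is a small atypical DUSP that lacks the MAP kinase docking domain of the typical members.

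Cumulus libraries held 1103200 to 10430148 counts and oocyte libraries 8886070 to 29810354. The cumulus libraries of the BCB negative class were shallower (median 2252271 counts against 5853816), and a median of 7.59% of their counts came from the 13 mitochondrially encoded protein genes, against 1.38% in the BCB positive class. Complex numbers fell into 3 runs: complexes 6 to 24 (3 BCB positive, 1 BCB negative), 65 to 74 (6 and 3) and 86 to 91 (6 BCB negative and no BCB positive), so for the last run number and class cannot be told apart. The 9 cumulus and granulosa markers with an identifier (FSHR, INHA, INHBA, FOXL2 and others) summed to 804 to 19382 CPM, counts scaled to library size, in cumulus libraries and 7.82 to 1757 in oocyte libraries. The oocyte library of complex 72 stood apart, at 9.06% of the marker sum of its own cumulus cells against a median of 0.613% over complexes. ZP2, ZP3 and DAZL, the 3 oocyte markers with an identifier, summed to 2767 to 5095 CPM in oocytes and 0.108 to 66.5 in cumulus libraries, highest in complex 66. No pair of libraries of a compartment correlated above 0.985, and 1 marker each of theca, endothelial and erythroid cells had an identifier. STAR and VWF were at most 30.2 and 16.3 CPM in cumulus libraries and at 404 to 683 and 14.96 to 82.9 in oocyte libraries, so they do not serve as markers of other cells here, and HBA reached 573 CPM in the cumulus library of complex 72. The 8 leukocyte markers listed were not analysed here.

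MAP3K8 was far higher in cumulus cells than in oocytes. On a scale shared by all 38 libraries (CPM divided by a TMM factor, which matches the libraries on the bulk of their genes), its level in cumulus cells ran from 2.52 to 29.0 with a median of 7.09. In oocytes it ran from 0.258 to 1.77 with a median of 0.619. Every oocyte lay below every cumulus library, and each oocyte lay below its own cumulus cells in 19 of 19 complexes. The fitted log2 difference, oocyte minus cumulus, was -3.75 ± 0.23 (SE), with an adjusted p of 2.01e-18 in edgeR's quasi-likelihood test. MAP3K8 passed the filter of CPM above 2 in at least 9 libraries through the cumulus cells alone, since 1 of 19 oocytes reached that level. The filter itself favours a difference in a gene that passes in this way, so its call is no test.

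The MAP3K8 reads in oocytes were few but present in all 19 libraries, from 4 to 55 counts. The fewest were in complex 68, where 4 counts gave 0.426 CPM with an exact 95% binomial interval of 0.116 to 1.09, which covers counting error only. In CPM, MAP3K8 in the oocyte amounted to 2.84% to 23.2% of its level in the cumulus cells of the same complex, with a median of 10.5%. The summed cumulus markers amounted to 0.114% to 9.06%, and MAP3K8 exceeded that share in 19 of 19 complexes. Single markers differed among themselves, with oocyte medians from 0.145% of the cumulus median for INHA to 7.27% for NR5A1, a steroidogenic transcription factor.

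MAPK3 was read on both sides of the complex, somewhat lower in the oocyte. Its level on the shared scale was 5.03 to 9.42 in oocytes (median 6.35) and 6.62 to 18.7 in cumulus cells (median 10.9), and the ranges overlapped. The oocyte was below its own cumulus cells in 18 of 19 complexes, and the log2 difference was -0.68 ± 0.12, adjusted p 2.2e-06 in the quasi-likelihood test. With CPM from library totals alone the oocyte was lower in 13 of 19 complexes and the difference was -0.28 ± 0.13, which missed the threshold of 0.01 (adjusted p 0.0425, edgeR).

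DUSP14 was also lower in oocytes, with a wider spread. Oocytes held 3.69 to 12.0 on the shared scale (median 7.87) and cumulus cells 5.81 to 32.2 (median 11.7). The oocyte was lower in 15 of 19 complexes, in 9 of 9 of the BCB positive class and 6 of 10 of the BCB negative class. The log2 difference was -0.71 ± 0.16 (adjusted p 0.000115, edgeR). From library totals alone it was -0.29 ± 0.16 and no longer passed (adjusted p 0.0815, edgeR).

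MAPK3 and DUSP14, kept in both compartments, were thus called lower in oocytes, and the call of MAP3K8 was favoured by the filter. In this comparison 88.8% of the 14785 genes tested were called, 46.5% higher and 42.3% lower in oocytes. A call of this kind was the common outcome for any gene. The median difference over all genes was 0.15 with the TMM factors and 0.56 with library totals alone, and with that shift MAPK3 and DUSP14 lost their calls while MAP3K8 was at -3.36 ± 0.24. In BCB positive complexes alone MAPK3 was not called (-0.48, adjusted p 0.0139, edgeR), and in BCB negative complexes alone DUSP14 was not called (-0.39, adjusted p 0.146, edgeR). Without complexes 66, 68 and 72, which held the libraries with the highest sums of the other compartment's markers, the differences were -3.80, -0.69 and -0.66 for MAP3K8, MAPK3 and DUSP14, and the calls of MAPK3 and DUSP14 remained.

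**Figure D1:**
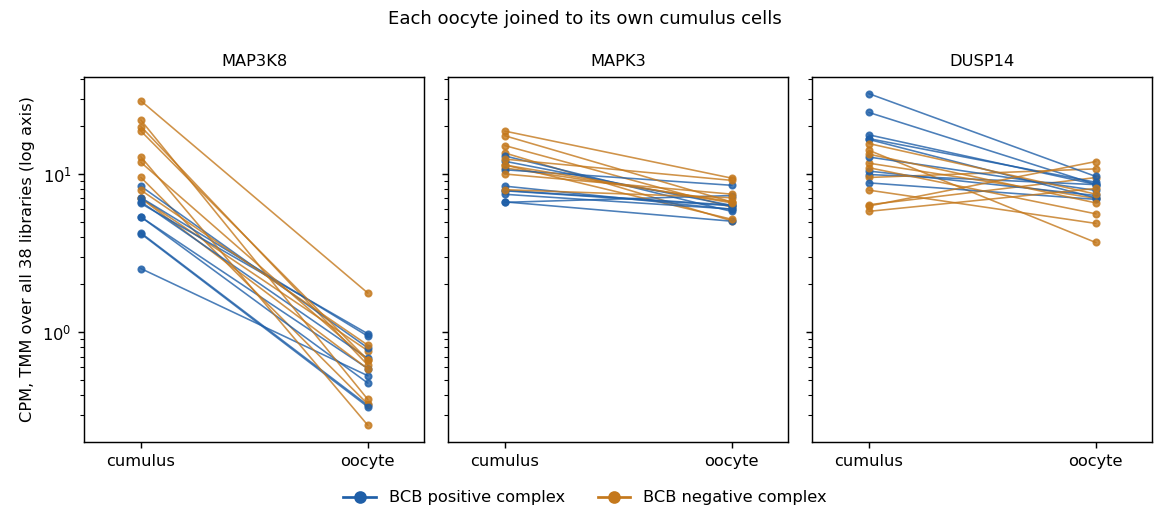
Level of MAP3K8, MAPK3 and DUSP14 in the cumulus cells and the oocyte of each of 19 complexes (CPM with TMM factors over all 38 libraries, log axis), with a line joining the libraries of a complex and the colour giving its BCB class. All 19 MAP3K8 lines fall, 18 of 19 MAPK3 lines fall, and 4 DUSP14 lines, all from BCB negative complexes, rise.

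On the shared scale MAP3K8 was highest in BCB negative cumulus cells (14.6 ± 7.48, SD, n = 10), then in BCB positive cumulus cells (5.59 ± 1.78, n = 9), and lowest in oocytes of either class (0.687 ± 0.422 and 0.630 ± 0.237). MAPK3 followed that order with smaller steps, at 12.9 ± 3.35, 8.94 ± 2.36, 6.94 ± 1.44 and 6.396 ± 0.985. DUSP14 had its highest level in BCB positive cumulus cells (16.6 ± 7.63), followed by BCB negative cumulus cells (10.2 ± 3.53), BCB positive oocytes (8.16 ± 0.924) and BCB negative oocytes (7.56 ± 2.61). Neighbouring means of DUSP14 differed by less than the larger of their SDs throughout. For MAPK3 that held for all neighbours but the pair of cumulus classes, and for MAP3K8 it held for the oocyte classes alone.

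In cumulus cells the BCB classes were compared with TMM factors computed over the 19 cumulus libraries. MAP3K8 in the 9 BCB positive complexes had a lowest level of 2.13, a median of 4.54 and a highest of 6.996 TMM-scaled CPM. In the 10 BCB negative complexes the lowest was 6.08, the median 10.6 and the highest 25.4. The 7 highest libraries were all BCB negative, and 8 of 9 BCB positive libraries lay below every BCB negative one. The log2 difference, BCB positive minus BCB negative, was -1.45 ± 0.29 (SE).

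The MAP3K8 values of BCB negative complexes differed between runs. Complexes 86 to 91 held 6.72 to 25.4 TMM-scaled CPM and complex 6 held 18.2, while complexes 65, 66 and 68 held 6.08, 6.14 and 8.48. Among complexes 65 to 74, the only run with several complexes of each class, the log2 difference was -0.34 ± 0.39. Complexes 65, 66 and 68 gave the 3 shallowest cumulus libraries, with 7, 9 and 5 MAP3K8 counts, and the interval for the 5 counts was 1.47 to 10.6 CPM. By library totals alone the means of that run turned round, at 6.49 ± 1.22 CPM in BCB positive (n = 6) and 4.77 ± 0.683 in BCB negative cumulus cells (n = 3). Over all complexes the direction was the same on both scales, 5.67 ± 1.72 against 11.002 ± 6.34 CPM.

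MAPK3 in BCB positive cumulus cells had a lowest level of 5.63, a median of 6.65 and a highest of 11.1 TMM-scaled CPM. In BCB negative cumulus cells the values were 6.81, 10.5 and 15.9. The classes overlapped, with 4 BCB negative libraries above all BCB positive ones and 5 BCB positive libraries below all BCB negative ones, and the log2 difference was -0.56 ± 0.20. From library totals alone the difference was -0.10 ± 0.23 and the group means were 9.07 ± 2.18 and 9.56 ± 3.30 CPM. Within complexes 65 to 74 it was -0.53 ± 0.32 with TMM factors.

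DUSP14 went the other way. BCB positive cumulus cells had a lowest level of 7.48, a median of 13.9 and a highest of 27.2 TMM-scaled CPM, and BCB negative cumulus cells 5.08, 9.00 and 13.4. The 5 highest libraries were BCB positive and the 4 lowest BCB negative, with overlap between. The log2 difference was 0.70 ± 0.26, and with library totals alone, which raised the differences of all 3 genes, it was 1.18 ± 0.26. Within complexes 65 to 74 it was 0.40 ± 0.44.

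This contrast, which the choice of genes had used, called 0.56% of the 12313 genes tested. TMM factors in cumulus libraries ran from 0.542 to 1.16 in the BCB negative class and 1.09 to 1.27 in the BCB positive class, and dropping them moved the median difference over all genes from -0.01 to 0.46. Depth, the mitochondrial share and the run of complex numbers moved with the class as given above. The sums of cell type markers in cumulus libraries moved with it too. The 9 cumulus and granulosa markers had a median sum of 8896 CPM in the BCB positive class (5583 to 19382) and 5091 in the BCB negative class (804 to 8140), and the 3 oocyte markers 0.555 (0.108 to 1.82) and 4.68 (0.661 to 66.5). No marker with an identifier in either list was at 0 in all libraries of a class. The part of the markers and of the mitochondrial share in the 3 differences was not tested. With the run as a covariate the differences were -1.07, -0.59 and 0.63 for MAP3K8, MAPK3 and DUSP14, and with the log10 library total as a covariate they were -1.66, -0.46 and 0.83. Without complexes 66, 68 and 72 they were -1.63, -0.64 and 0.54.

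**Figure D2:**
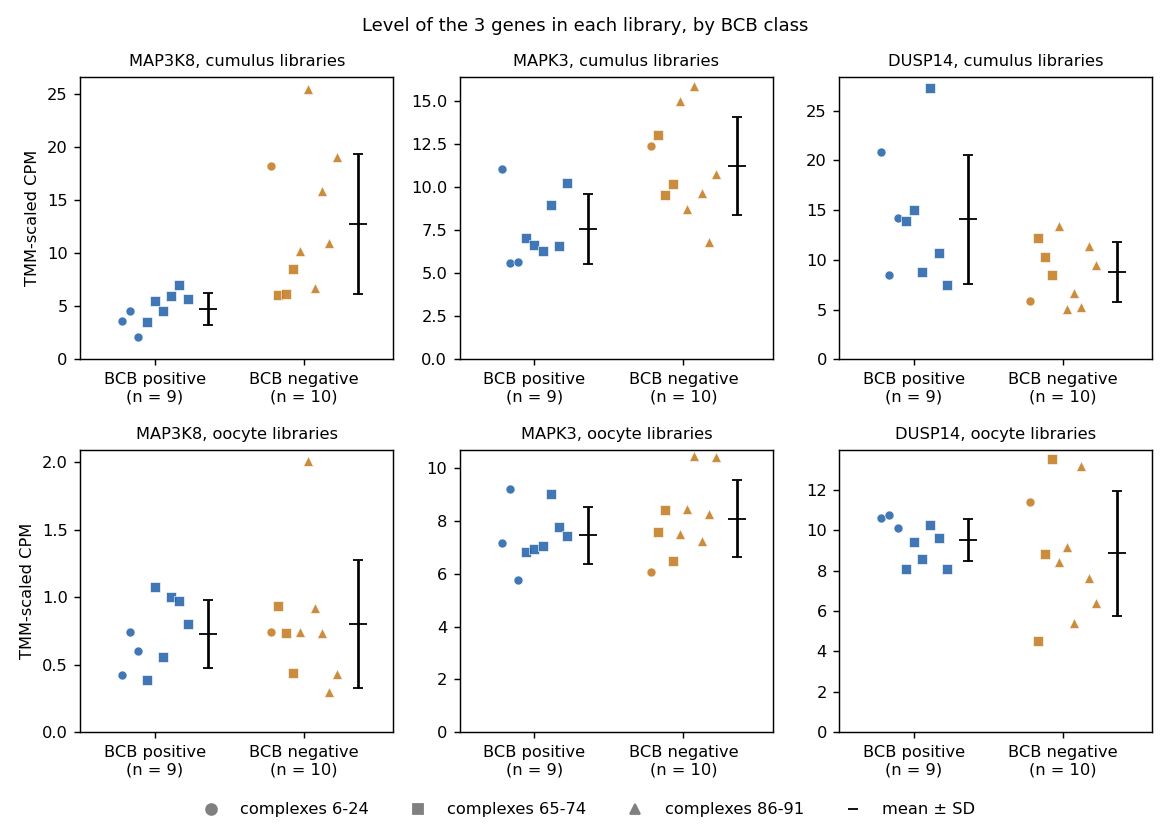
TMM-scaled CPM of MAP3K8, MAPK3 and DUSP14 in each cumulus library (top) and oocyte library (bottom) by BCB class, with the symbol giving the run of complex numbers and bars the mean ± SD (n = 9 and n = 10). In cumulus cells the MAP3K8 values above 6.996 are all BCB negative and mostly from complexes 86 to 91, while in oocytes the classes overlap for all 3 genes.

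**Figure D3:**
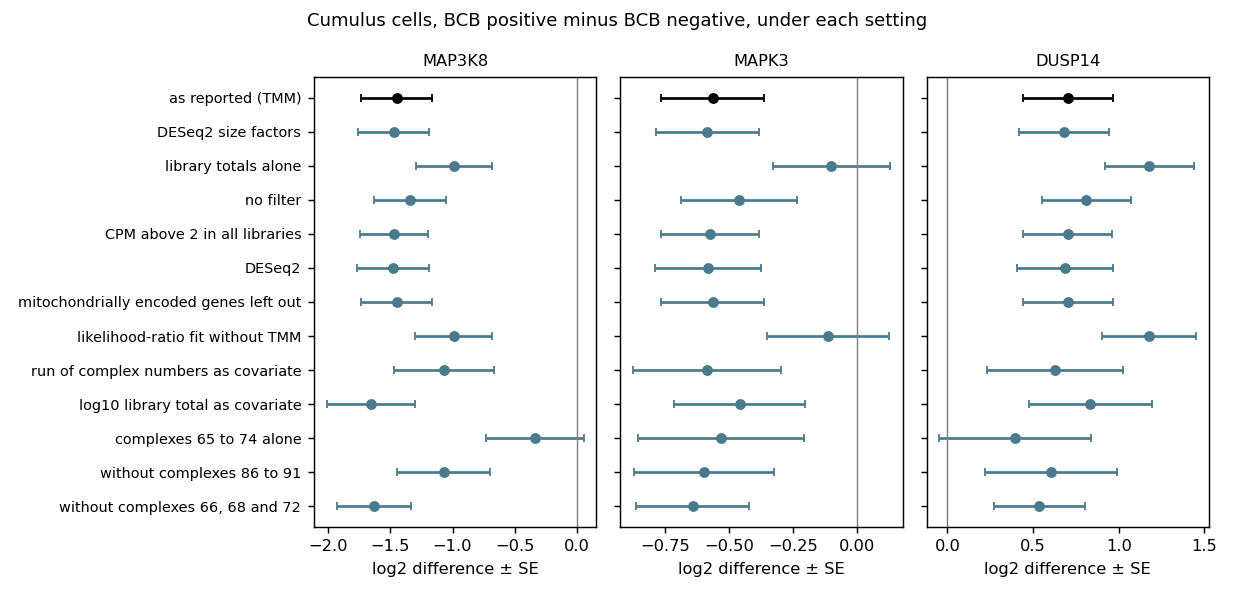
Log2 difference in cumulus cells, BCB positive minus BCB negative, with its SE, under each way of fitting it, one panel for each gene. MAP3K8 stays below 0 and nearest to it within complexes 65 to 74 (-0.34), MAPK3 moves to -0.10 with library totals alone, and DUSP14 stays above 0.

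In oocytes no difference between BCB classes was detectable for these transcripts. This comparison took no part in choosing the genes and was tested. MAPK3 had 5.75, 7.16 and 9.19 TMM-scaled CPM as lowest, median and highest values in BCB positive oocytes and 6.08, 7.91 and 10.5 in BCB negative oocytes. The log2 difference was -0.12 ± 0.14 (adjusted p 0.944, edgeR). DUSP14 had 8.08, 9.63 and 10.8 in BCB positive oocytes and 4.53, 8.62 and 13.5 in BCB negative oocytes, with a log2 difference of 0.11 ± 0.18 (adjusted p 0.962, edgeR). MAP3K8 lay below the filter in oocytes, and a fit without the filter gave -0.15 ± 0.35 (adjusted p 0.949, edgeR).

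None of the 12753 genes tested passed at 0.01 in oocytes (0% called, 711 with an unadjusted p under 0.05, and 1 gene called by DESeq2). The direction of both differences changed with the run of complex numbers as a covariate, to 0.07 ± 0.18 for MAPK3 and -0.02 ± 0.24 for DUSP14.

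The spread between complexes is given as a description. The SD of log2(TMM-scaled CPM + 1) over 19 complexes was 0.81 for MAP3K8, 0.41 for MAPK3 and 0.58 for DUSP14 in cumulus cells, against a median of 0.48 for the 12313 genes kept there. In oocytes it was 0.21 for MAPK3 and 0.35 for DUSP14, against a median of 0.31 for 12753 genes. MAP3K8 in cumulus cells was more variable than 87.7% of the genes kept, while MAPK3 was more variable than 37.2% there and 15.4% in oocytes. With library totals alone the cumulus figures were 72.1% for MAP3K8 and 2.56% for MAPK3. The SD of MAP3K8 includes the class difference by which it was chosen, and pooled within the classes it was 0.57. The coefficient of variation of MAP3K8 in cumulus cells was 70.4% over all complexes, 31.6% within the BCB positive class and 51.9% within the BCB negative class, where counting alone gives 17.2% and 18.4%. For MAPK3 the values within the classes were 26.7% and 25.4%, where counting gives 13.8% and 20.7%.

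DUSP14 varied unequally between the oocyte classes. Its values in BCB positive oocytes kept within 8.08 to 10.8 TMM-scaled CPM, a coefficient of variation of 10.96% where counting gives 8.67%. In BCB negative oocytes the coefficient was 34.8% where counting gives 8.20%, with complexes 65 (4.53) and 88 (5.41) at the bottom and 68 (13.5) and 89 (13.2) at the top. The high and low oocytes came from the same runs, and no test of the difference in spread was made. In cumulus cells the order was the reverse, with 45.9% in BCB positive and 34.1% in BCB negative complexes.

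The level of each gene in the oocyte was also set against its level in the cumulus cells of the same complex, a relation the choice of genes had not used. In oocytes MAP3K8 lay below the filter, at 4 to 55 counts, so its correlations there rest on few reads. On the log2(TMM-scaled CPM + 1) scale Pearson's r between the oocyte and its own cumulus cells was 0.31 for MAP3K8, 0.23 for MAPK3 and -0.05 for DUSP14 (n = 19, adjusted permutation p 0.483, 0.578 and 0.8498, Spearman's rho 0.17, 0.14 and -0.10 with adjusted permutation p 0.718, 0.718 and 0.726). Without the 2 complexes farthest in the cumulus level r was 0.10, 0.18 and -0.26. These were 3 of 15 relations computed, which also held each gene against the log10 library total and each pair of genes within a compartment. None of the 15 passed 0.05 after adjustment on this scale over all complexes. MAP3K8 and DUSP14 in cumulus cells, taken up with class differences of opposite sign, had r = -0.59 and rho = -0.57 as a description, and within a class r was -0.13 in BCB positive and -0.58 in BCB negative complexes, and -0.17 within complexes 65 to 74. MAPK3 and DUSP14 in oocytes had r = -0.48 (rho = -0.40, adjusted permutation p 0.189 and 0.268), which was -0.20 without the 2 farthest complexes, 0.32 in BCB positive and -0.66 in BCB negative complexes, and -0.13 within complexes 65 to 74. Within the BCB positive class the oocyte-cumulus r was 0.72, 0.16 and 0.45 for MAP3K8, MAPK3 and DUSP14 (rho 0.78, 0.03 and 0.33), and within the BCB negative class it was 0.28, 0.07 and -0.46 (rho -0.15, -0.01 and -0.54). Within complexes 65 to 74 it was 0.29, 0.21 and 0.01 (rho 0.12, 0.07 and 0.05). These values within classes and runs are a description. On the study's scale, described next, r between oocyte and own cumulus cells was 0.64, 0.48 and 0.29 for MAP3K8, MAPK3 and DUSP14, beside medians over all oocyte genes of 0.63, 0.46 and 0.27, and is given as a description.

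The correlations by which the study linked these cumulus genes to oocyte genes were computed on another scale, in which counts are divided by the TMM factor but not by the library total and then transformed by the inverse hyperbolic sine. On that scale MAP3K8 in cumulus cells had r of at least 0.85 with 88 of 12753 oocyte genes, MAPK3 with 13 and DUSP14 with none. DUSP14 had r of at least 0.99 with 8 oocyte genes over the 9 BCB positive complexes, led by GPX4, a glutathione peroxidase that protects membrane lipids (r = 0.996). On the log2(TMM-scaled CPM + 1) scale, which differs both in dividing by the library total and in its transform, no oocyte gene reached these thresholds for any of the 3 genes. The median r over all oocyte genes on that scale was 0.00, 0.02 and 0.00 for MAP3K8, MAPK3 and DUSP14.

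NFKB1, whose p105 product binds MAP3K8, was one of the oocyte genes with r of at least 0.85. The transcripts were read in different cells, so r is no measure of that binding. MAP3K8 in cumulus cells and NFKB1 in the oocyte had r = 0.86 on the study's scale, beside a median of 0.63 over all oocyte genes. On the log2 scale r was 0.10 (n = 19 complexes). Within the BCB positive class the value on the log2 scale was 0.71 and within the BCB negative class 0.32. On the first scale the 3 genes in cumulus cells also rose with the library total itself, with r of 0.61 for MAP3K8, 0.88 for MAPK3 and 0.87 for DUSP14.

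**Figure D4:**
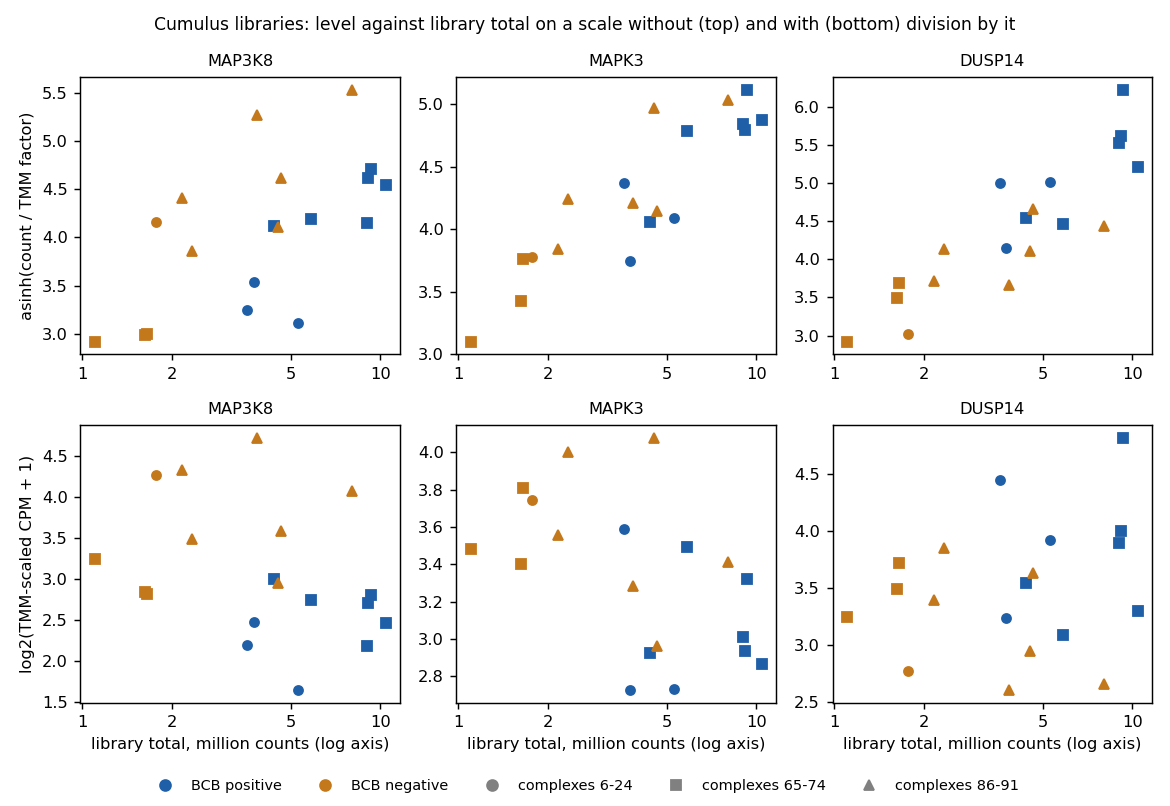
Level of MAP3K8, MAPK3 and DUSP14 in the 19 cumulus libraries against the library total (log axis), as inverse hyperbolic sine of counts over the TMM factor (top) and as log2(TMM-scaled CPM + 1) (bottom), with colour for BCB class and symbol for the run of complex numbers. On the top scale all 3 genes climb with the total (r = 0.61, 0.88 and 0.87), and on the bottom scale they do not (r = -0.33, -0.51 and 0.22).

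The genes whose levels were most like each of the 3 over the 19 libraries of a compartment are given with Pearson's r among 4484 kept genes with a symbol in cumulus cells and 4588 in oocytes, as a description. Among the genes closest to MAP3K8 in cumulus cells were PICALM (clathrin assembly, r = 0.85), SAT1 (polyamine catabolism, 0.834), TMSB10 (an actin-binding thymosin, 0.825) and NNAT (neuronatin, 0.81). Within complexes 65 to 74 the values for PICALM, SAT1, TMSB10 and NNAT were 0.18, 0.32, 0.57 and 0.34. In cumulus cells r over all complexes includes the class differences by which MAP3K8 and DUSP14 were chosen. DUSP14 in cumulus cells was closest to WBP2 (a transcriptional co-activator, 0.91), SERINC2 (0.88), PGF (placental growth factor, 0.87), C15H11orf96 (0.87) and IGFBP4 (an IGF-binding protein, 0.85), and WBP2 reached 0.99 within complexes 65 to 74. MAPK3 had weaker matches, led by REPS2 (0.75) and CDKN1C (a cyclin-dependent kinase inhibitor, 0.74) in cumulus cells and by EBF4 (0.73) and EML3 (0.70) in oocytes. NABP1 (0.72) and GFM1 (0.71) led for DUSP14 in oocytes. With library totals alone r was 0.525 for PICALM and 0.91 for WBP2.

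A wider list of 147 MAP kinase pathway genes set the 3 genes in context, and 60 others of the list had an identifier. Identifiers came from tables that the study had ordered partly by its own cumulus and oocyte comparisons, so these 60 were partly chosen on these samples and are not independent evidence of any direction between BCB classes. Between compartments 52 of the 60 were called, 31 higher and 21 lower in oocytes (86.7%, near the 88.8% of all genes), with a median log2 difference of 0.33 against 0.15. Of the 60, 4 passed the filter through oocytes alone and 5 through cumulus cells alone. The filter favours a difference in those 9, so their calls are no test. GRB2 was the one called gene whose direction changed with library totals alone.

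At the top of the cascade EGFR, the receptor through which EGF-like factors act on cumulus cells, was lower in oocytes, with a log2 difference of -3.40 ± 0.14 (236 ± 57.3 in cumulus cells and 22.4 ± 7.17 in oocytes, shared scale, SD, n = 19). Of 5 adaptors, exchange factors and RAS proteins 3 were higher in oocytes and 2 lower, where 88.8% of all genes were called, and 1 of the lower, GRB2, turned with library totals. They ran from SHC1, an adaptor between receptors and RAS (2.68 ± 0.10), to SOS2, an exchange factor for RAS (-0.51 ± 0.11). Of 2 feedback inhibitors tested, SPRY2 was higher in oocytes by 2.28 ± 0.29. SPRED3, at 3.01 ± 0.40, passed the filter through oocytes alone, which favours a difference.

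Of the kinases in the tier of MAP3K8, 9 others had an identifier, and 7 were higher in oocytes, 1 was lower (TAOK2, -0.86 ± 0.13) and 1 was not called, beside 46.5% higher and 42.3% lower over all genes. MAP3K8 itself, at -3.75, had passed the filter through cumulus cells alone. MAP3K14, the NF-kappa-B-inducing kinase, was at 41.2 ± 12.5 in oocytes and 6.46 ± 2.56 in cumulus cells, a log2 difference of 2.66 ± 0.17. Among partners of MAP3K8 and of the kinase TAK1, 4 of 5 were higher in oocytes, beside 46.5% of all genes. NFKB1 was higher by 0.41 ± 0.13 (adjusted p 0.0040, edgeR), TAB1, an activator of TAK1, by 1.28 ± 0.09 and IKBKB, an I-kappa-B kinase, by 1.82 ± 0.11, while TAB2 was not called (-0.17 ± 0.11, adjusted p 0.124). TNIP2, MAP3K7 and MOS, the MAP3K that drives ERK in maturing oocytes, were not analysed here.

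Below that tier the MEK kinases differed from each other. MAP2K1 (MEK1) was at 254 ± 32.6 in oocytes and 24.8 ± 6.92 in cumulus cells, a log2 difference of 3.35 ± 0.11, whereas MAP2K2 (MEK2) was at 67.8 ± 10.7 and 77.5 ± 17.6 and was not called (-0.20 ± 0.10, adjusted p 0.0451, edgeR). Among 5 MAP kinases besides MAPK3, 3 were higher in oocytes (46.5% over all genes), led by MAPK7 (ERK5, 2.08 ± 0.12), 1 was lower and 1 was not called. The lower, MAPK15 (-1.92 ± 0.21), passed the filter through cumulus cells alone, which favours a difference. The scaffolds MAPK8IP3 (1.51 ± 0.11) and MAPK8IP1 (-1.17 ± 0.14) went opposite ways. Of 5 kinases that MAP kinases activate, MAPKAPK5 was higher in oocytes (0.31 ± 0.09), 2 were lower, including RPS6KA2 (-1.02 ± 0.25), and 2 were not called, where 46.5% of all genes were higher, 42.3% lower and 88.8% called.

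Phosphatases split by gene. DUSP1 and DUSP6, typical MAP kinase phosphatases that ERK signalling itself induces, were lower in oocytes (DUSP1 -3.81 ± 0.25), while DUSP16 was higher by 0.95 ± 0.15. Of the 5 atypical members besides DUSP14, DUSP13 passed the filter through oocytes alone and DUSP15 through cumulus cells alone, which favours a difference in both. DUSP14 was kept in both compartments. DUSP13 was at 44.2 ± 8.48 in oocytes and 0.973 ± 2.65 in cumulus cells, where no library held more than 6 counts. DUSP15 was at 0.555 ± 0.603 in oocytes and 21.3 ± 5.97 in cumulus cells. DUSP22 was higher in oocytes, and DUSP3 and DUSP23 were not called.

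All 15 target transcription factors and immediate-early genes were called, 10 lower and 5 higher in oocytes, beside 88.8% of all genes. Of these, EGR2, EGR3 and IER2 passed the filter through cumulus cells alone and ETV4 and ETV5 through oocytes alone. So 5 of the 15 calls were favoured by the filter and are no test. The immediate-early genes FOS, FOSB, JUN, EGR1, EGR2, EGR3, IER2 and IER3, which growth factor signalling switches on within minutes, were lower in oocytes, with log2 differences of -3.83 to -5.95, and those kept in both compartments from -3.83 (IER3) to -5.78 (FOS). The other lower members of the list, SRF and JUND, were at -2.58 ± 0.16 and -1.54 ± 0.14. JUN, for example, was at 1688 ± 844 in cumulus cells and 77.3 ± 64.3 in oocytes, and IER3 at 59.6 ± 29.2 and 4.42 ± 3.76. The ETS factors ETV1, ETV4, ETV5, ELK3 and ELK4 were higher in oocytes, from 1.198 for ELK4 to 4.32 ± 0.21 for ELK3 among those kept in both compartments. The genes of this group other than ETV1, ETV5 and EGR3, and DUSP3, DUSP6, DUSP22 and DUSP23, were picked for naming after their values were seen.

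**Figure D5:**
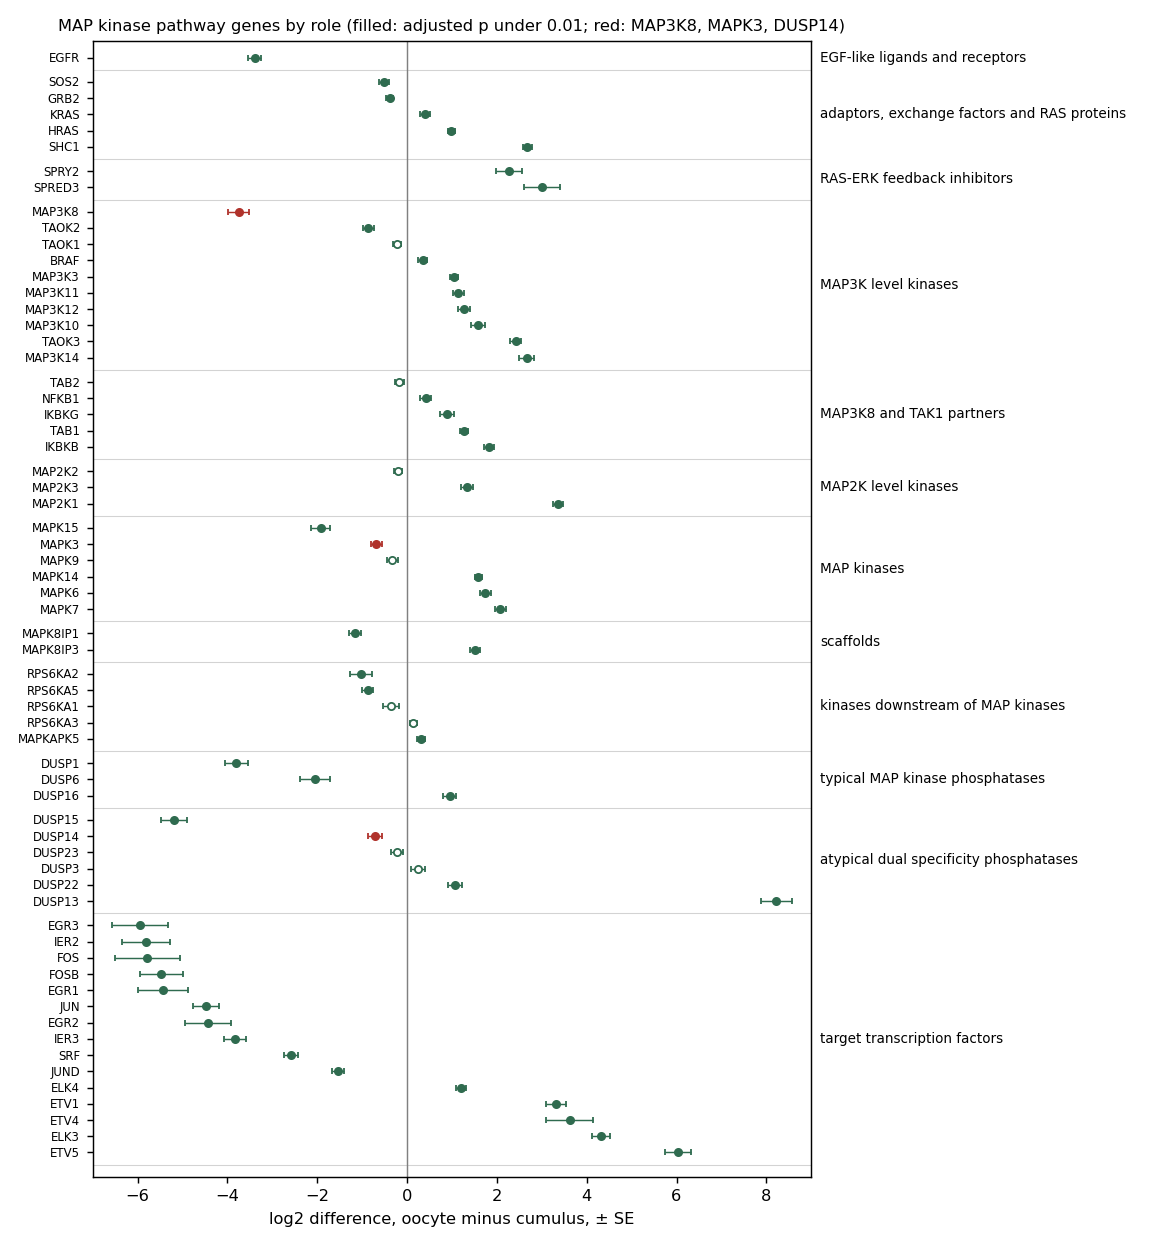
Log2 difference, oocyte minus cumulus, with its SE, for MAP3K8, MAPK3, DUSP14 (red) and 60 other MAP kinase pathway genes grouped by role, filled where the adjusted p was under 0.01. MAP3K8 is at -3.75, and the extremes, EGR3 at -5.95 and DUSP13 at 8.22, each passed the filter through 1 compartment alone.

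In cumulus cells 1 of 56 list genes tested was called between BCB classes (1.79%, beside 0.56% of all genes), and with library totals alone 14 were (25.0%, beside 13.8%). The 1 gene was ETV1, an ETS factor that the study had itself singled out from these samples. Of the cumulus libraries that took it past the filter (CPM above 2), all but complex 74 (2.22 CPM) were BCB negative, the class where it was higher. Its adjusted p-values are therefore a description and no test. Its levels were 0.257, 0.95 and 1.80 TMM-scaled CPM as lowest, median and highest in BCB positive and 1.54, 3.99 and 10.9 in BCB negative cumulus cells, from 1 to 31 counts. The log2 difference was -2.40 ± 0.43 (adjusted p 0.0065, edgeR), and the call was lost with the log10 library total as a covariate (-1.81, adjusted p 0.22, edgeR), within complexes 65 to 74 (-2.24, adjusted p 0.12) and without complexes 66, 68 and 72 (-2.27, adjusted p 0.0285). EGFR (0.24 ± 0.15), MAP2K1 (0.01 ± 0.20), NFKB1 (-0.07 ± 0.19) and DUSP1 (0.71 ± 0.29) were not called. In oocytes 0 of 55 list genes were called by edgeR or by DESeq2, and 5 had an unadjusted p under 0.05 in edgeR.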

How the data were processed

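Oocyte and cumulus RNA of 19 complexes was sequenced from oligo-dT primed cDNA. Per the study's methods, the authors trimmed reads, aligned them to ARS-UCD1.2 with HISAT2 2.1.0, removed duplicates and counted reads per Ensembl gene with featureCounts 1.6.0, with the strand setting not given in the sources used here. The deposited values are raw counts by the authors, in 2 tables, one for each compartment. Symbols came from the study's supplementary tables, which paired part of the identifiers with a name. The genes and lists were chosen with earlier results of these data known.

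Counts were fitted with edgeR 4.0.16 (R 4.3.3; TMM, robust quasi-likelihood, Benjamini-Hochberg over all genes kept, FDR 0.01), keeping genes with CPM above 2 in at least 9 libraries. Oocytes were compared with cumulus cells, and BCB classes within each compartment. Correlations and spreads used log2(TMM-scaled CPM + 1) and 100000 permutations, two-sided, exact under 10 complexes, in Python 3.11.15 with scipy 1.17.1. The fits were tested on simulated data. Alternatives covered scaling, filter, tool (DESeq2 1.42.0), covariates and samples. Most genes were named by a rule: the 3 genes, the 5 most alike to each, their partners, list genes called between BCB classes and the extremes of each role. Named outside it, after their values were seen, were GRB2, SPRY2, GPX4, DUSP3, DUSP6, DUSP22, DUSP23 and the target transcription factors and immediate-early genes other than ETV1, ETV5 and EGR3. Some genes that the rule names are not reported here.

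The complex number in the labels pairs an oocyte with its own cumulus cells. Deviations of the paired libraries from their group means had r of -0.0189 to 0.215 (median 0.0761 over 10281 genes), above 0.1 in 5 of 19 pairs.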

Additional observations from a re-analysis of the deposited data

Results flagged for a closer look

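In 28 named genes, each group of 9 or 10 libraries was searched for a highest or lowest value far from the rest. Of 112 groups 17 held one. The limit used passes about 1 in 20 groups of independent normal values, but these groups share libraries and many rest on few counts, so no chance rate is known for them. All were high values, given here as TMM-scaled CPM. MAP3K8 in BCB negative oocytes was 2.01 in complex 87, next to 0.937, and the same complex had the highest MAP3K8 in cumulus cells.

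Complex 72, whose oocyte library held the largest share of cumulus markers, had values apart from the other BCB positive complexes in its oocyte for DUSP1 (49.9, next 16.3), DUSP15 (2.97, next 1.26) and EGR3 (0.601, next 0.106). Its cumulus library stood apart for EGFR (323, next 240), EGR3 (9.81, next 4.83) and DUSP13 (0.0908, a single count, next 0).

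Complex 68, the shallowest cumulus library, stood apart in BCB negative cumulus cells for DUSP13 (10.2, from 6 counts), ETV5 (8.48, from 5 counts), SHC1 (66.1, from 39 counts) and SPRED3 (3.39, from 2 counts). Its oocyte stood apart for MAP2K1 (436, next 347). Other cumulus values far from their group were DUSP16 in complex 91 (20.3, next 10.7), ETV5 in complex 74 (1.11, next 0.412), MAPK15 in complex 71 (11.5, next 6.99) and SOS2 in complex 6 (67.1, next 47.1). RPS6KA2 was 10.97 in the oocyte of complex 71, next to 5.71. The cause of these values was not tested.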

How the results depend on the processing

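Cumulus values of the 3 genes rest on 5 to 15 counts in complexes 65, 66 and 68, run 86 to 91 holds 1 class, and a large part of the pathway list had no identifier. MAP3K8 passed the filter through cumulus cells alone, so its oocyte-cumulus call is no measure of stability, and a filter of CPM above 2 in all libraries left it out. With complex as a replicate block the differences were -3.80, -0.67 and -0.68 for MAP3K8, MAPK3 and DUSP14, list calls were 30 higher and 21 lower, and MAPK3 and DUSP14 were still called. With library totals alone MAPK3 (-0.28) and DUSP14 (-0.29) missed the threshold, as did MAPK3 in BCB positive complexes alone (-0.48) and DUSP14 in BCB negative complexes alone (-0.39).

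Between oocyte classes the sign turned with the run as a covariate (DUSP14 -0.0219, MAPK3 0.0749), in complexes 65 to 74 (MAPK3 0.0187) and without complexes 86 to 91 (DUSP14 -0.0029, MAPK3 0.0707), the last chosen after seeing the data. In cumulus cells MAP3K8 was -0.34 within complexes 65 to 74, and MAPK3 was -0.10 with library totals and -0.11 by the likelihood-ratio test without TMM. The cause was not tested.

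All genes called in cumulus cells numbered 69, against 1704 with library totals (1601 higher, 103 lower, where the 69 were 5 and 64), 365 by DESeq2, 360 at FDR 0.05, 216 by the likelihood-ratio test without TMM and DESeq2 together, 164 without a filter, 139 without complexes 86 to 91, 115 with the run and 2 with the log10 total or without complexes 66, 68 and 72 (chosen after seeing the data). List genes called higher there were 13 with library totals and 1 by DESeq2, at FDR 0.05 or by the likelihood-ratio test and DESeq2 together. Those called lower were 2 without a filter and 0 with CPM above 2 in all libraries, the log10 total, complexes 65 to 74, or without complexes 66, 68 and 72.

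Correlations changed sign with library totals for the cumulus total with MAP3K8 (0.0114) and MAPK3 (0.209), DUSP14 across compartments (0.0283) and MAPK3 with DUSP14 in cumulus cells (0.109). On the study's scale they did so for the cumulus total with MAP3K8 (0.609) and MAPK3 (0.884), the oocyte total with DUSP14 (0.808), DUSP14 across compartments (0.291), DUSP14 in cumulus cells with MAP3K8 (0.312) and MAPK3 (0.756), and in oocytes with MAP3K8 (0.580) and MAPK3 (0.662).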
